A study of Mus musculus with 13 samples.

Results

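NP_LOH is a cluster of 218 nuclei among the 28316 nuclei of mouse kidney that were profiled by snATAC-seq, and its nuclei were taken here by that cluster name in the deposited annotation. The name joins the abbreviations for nephron progenitors (NP) and the loop of Henle (LOH), and the cluster stands outside the 13 named cell types. The data came from whole kidneys in 2 samples at P0, 1 at P21 (3 weeks) and 2 at P56 (8 weeks), and P21 and P56 are called adult. The labels give the stage and no strain or sex for these samples, and they do not say whether each sample is a separate animal, so the spread between samples may be in part technical. A peak counts as open in a nucleus that has a fragment in it, and each such pair is called an open call. The samples held 3361 to 7129 nuclei and 16980853 to 43794155 open calls.

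In snATAC-seq, Tn5 transposase cuts DNA that is not packed around nucleosomes, so open peaks mark promoters and enhancers in use or ready for use. Nephron progenitors are the Six2 and Cited1 cells of the developing kidney that give rise to the epithelium of the nephron, and in the mouse they are used up soon after birth. The loop of Henle has thin limbs, which pass water or salt without much active transport, and a thick ascending limb, which reabsorbs salt through the Slc12a1 cotransporter. Open chromatin over a gene is not its expression, and the same peak can serve several cell types.

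The nuclei of NP_LOH were adult nuclei. There were 0 and 1 in the P0 samples, 56 in the P21 sample, and 92 and 69 in the P56 samples. The cluster took 1.67% of nuclei at P21 (exact 95% interval 1.26 to 2.16), and 1.29% (1.04 to 1.58) and 1.08% (0.840 to 1.36) at P56. At P0 it took 0.0184% (0.000466 to 0.102) in the sample with 1 nucleus, and the count of 0 in the other allows a share of up to 0.0501% by a limit of 3 counts, or 0.0615% by the exact interval. These intervals and limits cover counting error only. The adult share was 1.35% ± 0.298 (SD, n = 3) and the P0 share 0.0092% ± 0.0130 (SD, n = 2). The stages did not overlap, and the difference was 1.34 percentage points with a two-sided exact permutation p of 0.2, which is the smallest that 2 against 3 samples can give. The NP cluster went the other way, with 1032 and 1005 nuclei at P0 against 52, 90 and 53 in the adult samples. NP_LOH therefore held 51.9%, 50.5% and 56.6% of the adult nuclei that carry NP in their name.

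**Figure D1:**
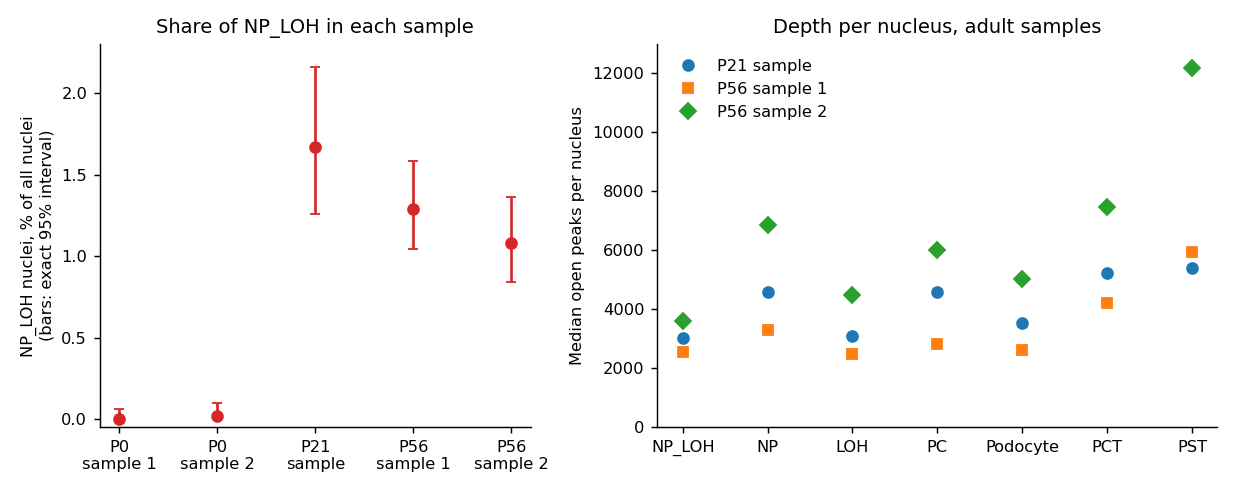
NP_LOH as a percentage of all nuclei in each of the 5 samples, with exact 95% intervals (left), and median open peaks of the nuclei in NP_LOH and 6 adult cell types, one point per adult sample (right). The adult samples lie between 1.08% and 1.67% and the P0 samples at or near 0, and the NP_LOH medians lie below the NP medians of the same samples.

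The regions that the adult NP cluster opens more than other cell types were open in NP_LOH at about the same level as in NP. As examples, 3 of them are shown here. For each adult cell type, 200 peaks were chosen in the other adult samples, without any NP_LOH nucleus, and 66 peaks entered the NP set in all 3 rounds. Every adult sample therefore took part in choosing these 66. The 3 sequences are the central 300 bases of such peaks with the highest share of open NP_LOH nuclei, 3 of the first 4 in that order. All are mm10 plus strand, 5′ to 3′. Capitals mark a matched motif, for which the letters are spelled out further on, and a sequence without capitals held none of the 10 searched motifs.
Gm29282 intron, 47.7 kb from the start of Ier5, chr1:155051787-155052086: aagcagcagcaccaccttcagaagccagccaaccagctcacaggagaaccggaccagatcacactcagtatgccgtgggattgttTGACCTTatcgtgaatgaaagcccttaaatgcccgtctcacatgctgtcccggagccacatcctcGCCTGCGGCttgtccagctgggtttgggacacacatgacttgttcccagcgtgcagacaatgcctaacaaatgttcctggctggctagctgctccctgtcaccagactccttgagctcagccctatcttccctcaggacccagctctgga
Chn2 intron, chr6:54167260-54167559: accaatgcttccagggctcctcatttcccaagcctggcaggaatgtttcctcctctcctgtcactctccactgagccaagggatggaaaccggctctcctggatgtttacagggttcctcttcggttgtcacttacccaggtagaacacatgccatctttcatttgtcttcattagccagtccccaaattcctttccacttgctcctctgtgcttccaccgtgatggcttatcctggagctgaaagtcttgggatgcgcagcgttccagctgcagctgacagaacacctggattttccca
Intergenic, 10.9 kb from the start of Proser2, chr2:6140966-6141265: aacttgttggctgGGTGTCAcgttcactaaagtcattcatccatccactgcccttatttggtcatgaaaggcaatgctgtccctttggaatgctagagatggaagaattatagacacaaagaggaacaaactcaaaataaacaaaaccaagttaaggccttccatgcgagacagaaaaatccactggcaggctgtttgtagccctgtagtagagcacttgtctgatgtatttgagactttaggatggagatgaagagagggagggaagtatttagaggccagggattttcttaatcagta

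The Gm29282 peak (chr1:155051172-155052701) was open in 11 of 56, 20 of 92 and 28 of 69 NP_LOH nuclei, or 27.2% of 217. It was open in 28.2% of adult NP nuclei and 2.31% of LOH nuclei. The highest of the other adult types was principal cells, with 7.06%. Ier5, the nearest coding gene, is an immediate early gene. The Chn2 peak (chr6:54167029-54167789) was open in 26.3% of NP_LOH nuclei, 21.5% of adult NP nuclei and 0.214% of LOH nuclei. Principal cells were again the highest of the other adult types, with 2.93%. Chn2 encodes a Rac GTPase activating protein. The peak near Proser2 (chr2:6140764-6141466) was open in 19.4%, 16.9% and 2.86% of the same 3 clusters. These peaks set the adult clusters NP_LOH and NP apart from LOH. They were also open in NP nuclei at P0, the Gm29282 peak in 17.0%, the Chn2 peak in 27.9% and the peak near Proser2 in 18.6%.

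Over the 66 peaks, the median share of open nuclei was 11.1% in NP_LOH, 12.8% in adult NP, 0.534% in LOH, 1.38% in principal cells (PC) and 2.65% in NP at P0. NP_LOH exceeded every other adult cell type outside NP at 64 of the 66, and it exceeded NP itself at 20. These shares are not scaled for depth, which was lower in NP_LOH. On the scaled log2 fold changes of edgeR, NP_LOH lay above NP at 35 of the 66, with a median of 0.13 and 0 calls. Of the 66, 47.0% lay in introns, 45.5% between genes, 6.06% in exons and 1.52% near a start site.

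Across whole sets, NP_LOH reached the level of adult NP and lay far below the own type in the other 12 sets when all samples were used. Each set was summed per sample as CPM, here the open calls per 1000000 open calls of a cluster in a sample, and the level in NP_LOH was divided by the level in the set's own cell type. In the NP set NP_LOH stood at 125%, 126% and 162% of NP, with a mean of 138% ± 20.7 (SD, n = 3), while the next type stood at 20.1%. The gap to the next type was narrower in other settings. The next type stood at 34.99% without the P21 sample, 50.4% without P56 sample 1 and 46.3% without P56 sample 2, and at 100.6% after thinning to 1000 open peaks per nucleus, where NP_LOH stood at 120% of NP. In the LOH set NP_LOH stood at 8.71% ± 1.58 of LOH, below adult NP at 14.9%. In the set of PC, the water-reabsorbing cells of the collecting duct, NP_LOH stood at 12.6% ± 2.12 against 10.5% for NP. The PC value was 35.4% thinned, 28.5% without P56 sample 1 and 20.3% without P56 sample 2. In the podocyte set (Podo), which marks the filter cells of the glomerulus, it stood at 1.50%, and at 26.6% thinned and 2.72%, 3.85% and 4.07% with the P21 sample, P56 sample 1 or P56 sample 2 left out. The proximal tubule sets gave 3.14% for the convoluted part (PT, or PCT) and 4.30% for the straight part (PT2, or PST), and 5.09% and 7.33% thinned. NP_LOH thus took up little of the LOH set, although LOH is in its name. The remaining 7 sets gave 0.812% (immune cells) to 5.65% (stroma1, one of the stromal clusters), but each of them moved by over 1.5 times with a sample left out or on thinning. The immune set stood at 24.4% without P56 sample 1, 19.4% without P56 sample 2 and 24.3% thinned. The stroma1 set stood at 24.2% without the P21 sample, 58.6% and 45.5% without P56 samples 1 and 2, and 80.8% thinned. The connecting tubule (CNT) set stood at 11.1% and 10.8% without P56 samples 1 and 2 and at 14.3% thinned. The distal convoluted tubule (DCT) set stood at 6.27%, 5.62% and 5.23% in those 3 runs and the intercalated cell (IC) set at 2.32% without P56 sample 1 and 4.86% thinned. The endothelial set went from 1.42% to 2.303% without P56 sample 1, and the stroma2 set from 0.893% to 1.51% thinned. In the stroma1 and immune sets adult NP moved alike, to 77.6% and 23.8% thinned.

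The progenitor profile of the newborn kidney was nearly absent. In a set of 200 peaks chosen for NP at P0, adult NP_LOH stood at 2.08% ± 0.413 of the P0 level, from 1.76% to 2.55%, and adult NP at 2.77%, from 1.70% to 3.77%. In the LOH set chosen at P0, NP_LOH stood at 33.9% and adult NP at 40.9%, against 94.6% for adult LOH. Those P0 sets were added after seeing the data.

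**Figure D2:**
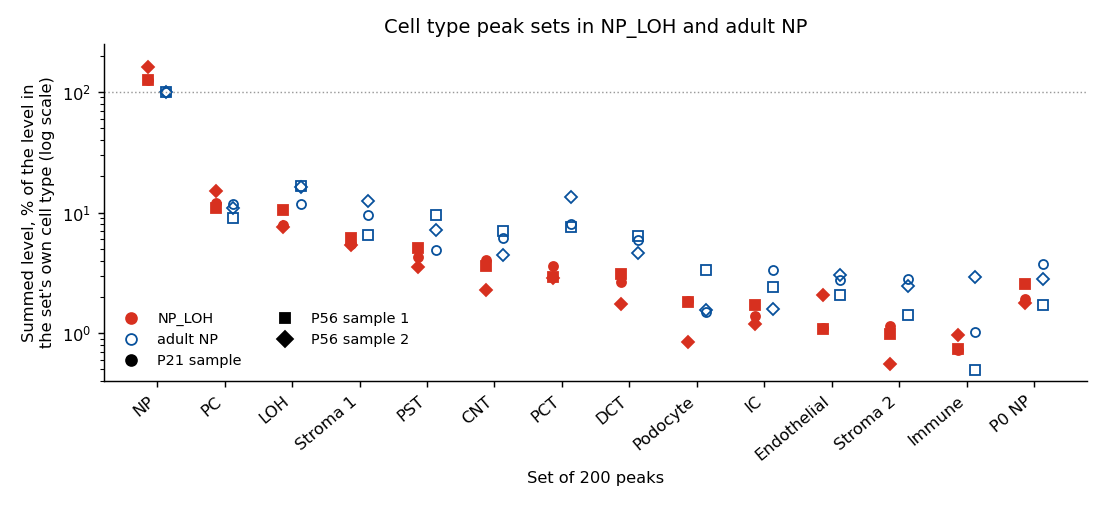
Level of NP_LOH (filled) and adult NP (open) in 14 sets of 200 peaks, as a percentage of the level in the set's own cell type on a log axis, one point per adult sample. NP_LOH reaches 125% to 162% in the NP set and has a mean of 12.6% or lower in each other set shown when all samples and open peaks are used, with 2.08% in the set of P0 NP.

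Single nuclei gave the same ranking. Each nucleus was scored against the 13 adult types by the likelihood of its open peaks, with its own sample left out of the references, and 214 of 217 NP_LOH nuclei (98.6%) were closest to NP and 3 to PC. NP was closest for 54 of 56, 91 of 92 and 69 of 69 nuclei in the P21 and P56 samples. Among 195 adult NP nuclei themselves, 166 (85.1%) returned to NP. For comparison, the NP nuclei at P0 went to podocytes in 1140 of 2037 cases and to adult NP in 691 (33.9%). Of the 214 nuclei, 185 (86.4%) had PC second and 29 (13.6%) LOH. When the references were cut to 80 nuclei each, 217 of 217 nuclei went to NP. When NP_LOH was offered as a further reference, an alternative added after seeing the data, 207 nuclei (95.4%) went to NP_LOH and 10 to NP. Adult NP nuclei were then shared out between NP (48.7%) and NP_LOH (36.9%). With equal references of 80 nuclei, 69.6% of NP_LOH nuclei and 70.3% of adult NP nuclei returned to their own cluster. Leaving out an adult sample lowered the share closest to NP to between 24.0% and 88.2%, with 24.0% without P56 sample 1 and 62.2% without P56 sample 2. Without P56 sample 1, NP was closest for 27 of 56 nuclei at P21 and 3 of 69 in P56 sample 2. A reference then rests on 1 sample and on unequal numbers of nuclei. With references of 35 nuclei each, also from 1 sample and added after seeing the data, the share was 99.2% to 100% in those runs. The cause of the difference was not tested.

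In the deposited UMAP embedding, the 15 nearest neighbours outside NP_LOH were NP nuclei in 100% of cases, of which 81.5% came from P0. The NP nuclei on offer were 2037 from P0 and 195 from adult samples, so most of them were from P0 as well. The centre of NP_LOH lay 2.08 UMAP units from NP at P0, the nearest centre, and 2.39 from adult NP. It lay 8.41 from adult LOH, 10.5 from PC, 17.4 from PT and 19.8 from Podo. Distances in such an embedding are a description of the picture only.

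**Figure D3:**
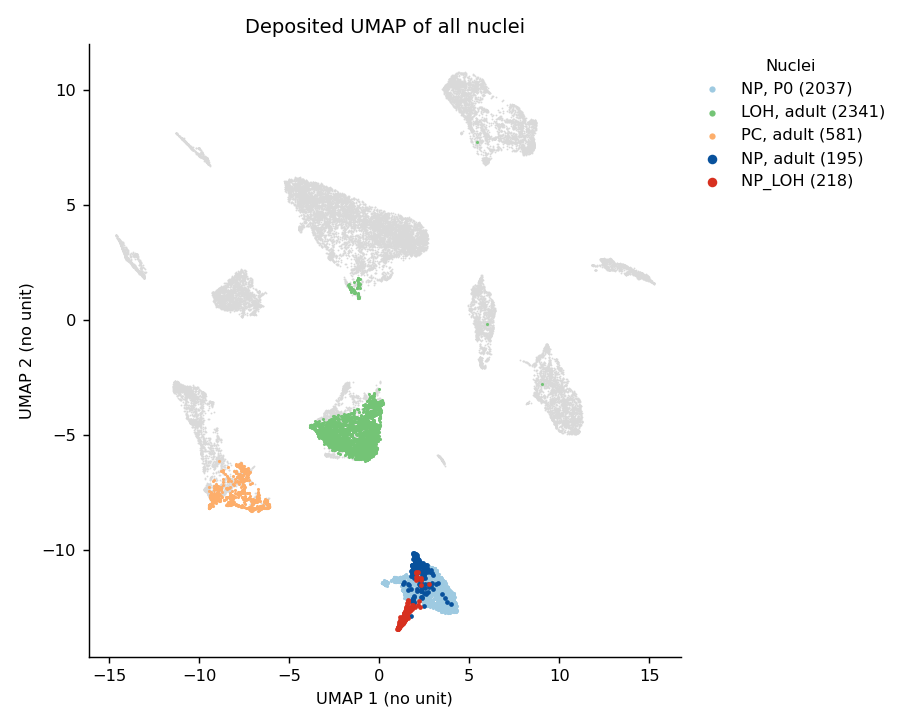
Deposited UMAP embedding of the nuclei, with P0 NP (2037 nuclei), adult LOH (2341), adult PC (581), adult NP (195) and NP_LOH (218) in colour and all other nuclei in grey, both axes in UMAP units. NP_LOH adjoins NP, with its centre 2.08 units from NP at P0 and 2.39 from adult NP, against 8.41 for LOH.

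Over 159057 peaks open in at least 50 nuclei, the profile of NP_LOH had a Spearman correlation of 0.598 with adult NP (0.563 to 0.631 over the 3 adult samples). It was 0.541 with PC, 0.523 with LOH, 0.423 with Podo, 0.426 with PT2 and 0.378 with PT. It was 0.479 and 0.491 with NP in the P0 samples, and 0.525 and 0.528 with LOH there. The profiles of a sample share its library and its depth, so these values are a description. A mixture of the 13 adult profiles that best matched NP_LOH drew 55.1% ± 6.37 from NP, 23.8% ± 3.70 from PC and 10.1% ± 2.63 from LOH (SD, n = 3), with 4.59% from Podo and 0% from PT. It left 15.9% to 19.9% of the squared signal unmatched. The order of the weights changed on thinning. When each nucleus was thinned to 1000 open peaks, NP took 19.6%, PC 19.9% and LOH 23.0%, while the correlation stayed highest with NP (0.453, against 0.435 with PC and 0.427 with LOH).

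The NP_LOH nuclei were shallower than adult NP nuclei. Medians of 3017 open peaks at P21 and of 2572 and 3595 at P56 were found in its nuclei, against 4602, 3291 and 6855 in NP. The ratio of the medians was 0.654 ± 0.129 to NP, lower in 3 of 3 samples, and 0.937 to LOH, lower in 2 of 3. The nuclei ranged from 754 to 11928 open peaks. Split by depth into 3 groups of nearly equal size, each had 98.6% of its nuclei closest to NP. Barcodes that hold more than 1 nucleus were not searched for. Of the NP_LOH barcodes 6 also occurred in another sample, and 0 of these fell in NP_LOH there.

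Peak by peak, NP_LOH was separated from LOH, Podo and both proximal clusters at many peaks and from NP at very few. Open calls were summed per sample and cluster, and edgeR compared the sums of the 3 adult samples by its quasi-likelihood test, with the sample as a block and Benjamini-Hochberg adjustment at 0.05. The clusters were drawn on these same nuclei, so the calls rank peaks and genes and are no independent test of the clusters. Of 59634 peaks, 0 were higher (0%) and 2 lower (0.00335%) in NP_LOH than in NP. At an unadjusted p under 0.05 there were 1257 higher and 3312 lower, and DESeq2 called 0. Few calls over 3 samples do not show that NP_LOH and NP are the same. Against LOH 5583 were higher (9.36%) and 7740 lower (13%). Against Podo 9610 peaks differed (16.1%), against PT 23929 (40.1%) and against PT2 19562 (32.8%). Gene activity, the open calls in the gene body and 2 kb upstream, gave the same order. Of 22993 genes, 1 was higher (0.00435%) and 8 lower (0.0348%) than in NP, with 737 and 1252 at an unadjusted p under 0.05 and 23 called by DESeq2. Against LOH 1929 genes were higher (8.39%) and 1825 lower (7.94%), and against Podo, PT and PT2 the called genes were 3396 (14.8%), 7574 (32.9%) and 7065 (30.7%).

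These counts depend on how many nuclei a cluster holds, and NP has 195 adult nuclei and Podo 243, against 2341 in LOH. With LOH reduced at random to the nuclei of NP in each sample, an alternative added after seeing the data, 4969 peaks and 2238 genes still differed from LOH. That fit tested 37579 peaks and 20869 genes. Both counts then lay below the 9610 peaks and 3396 genes against Podo, while with all LOH nuclei they lay above them. The counts therefore do not rank LOH and Podo by how alike they are to NP_LOH. Samples mattered too. Without P56 sample 1 or P56 sample 2, the peaks that differed were 7893 and 5839 against LOH, 4264 and 4904 against Podo, 13534 and 13844 against PT and 11461 and 11191 against PT2. The genes were 2492 and 2117 against LOH and 1865 and 2199 against Podo, and 4146 against PT2 without P56 sample 2. Without the P21 sample, 6099 peaks differed from Podo. The peaks tested were 40108 without P56 sample 1, 44382 without P56 sample 2 and 82693 without the P21 sample. In all of these runs the count against NP was 0 or 1 for peaks and 0 to 3 for genes. The split of directions depends on the scaling. The median log2 fold change of all peaks against LOH was −0.52 with TMM, −0.14 with the size factors of DESeq2 and 0.12 with DESeq2 itself, and the higher calls were 41.9%, 63.1% and 72.7% of the calls. The corresponding shares were 35.2%, 44.4% and 50.7% against PT, 33.0%, 39.6% and 45.6% against PT2, and 51.4%, 58.7% and 65.1% for genes against LOH. For genes against LOH the median log2 fold change was −0.11 with TMM and −0.02 with DESeq2.

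**Figure D4:**
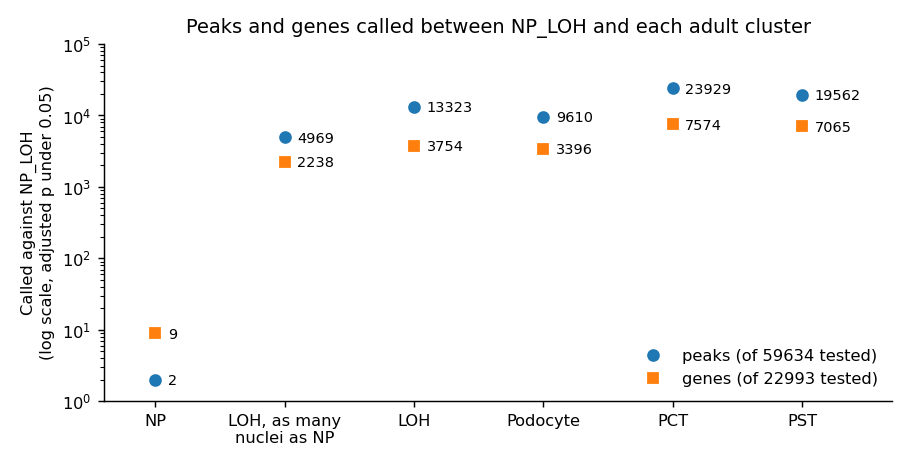
Number of peaks and of genes that differed between NP_LOH and each adult cluster (edgeR, adjusted p under 0.05) on a log axis, with LOH also reduced to the number of NP nuclei. The points range from 2 peaks and 9 genes against NP to 23929 peaks and 7574 genes against PCT.

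The 2 peaks that were lower than in NP lie in Tns1 and Lmntd1, and their central 300 bases (mm10, plus strand) are shown because they are the only peaks that the test called between these clusters.
Tns1 exon, chr1:74069351-74069650: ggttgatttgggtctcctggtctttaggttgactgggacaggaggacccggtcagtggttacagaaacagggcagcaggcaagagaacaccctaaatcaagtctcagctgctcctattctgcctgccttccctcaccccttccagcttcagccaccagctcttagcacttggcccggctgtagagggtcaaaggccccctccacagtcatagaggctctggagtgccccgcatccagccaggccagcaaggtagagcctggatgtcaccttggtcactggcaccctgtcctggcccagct
Lmntd1 intron, chr6:145479006-145479305: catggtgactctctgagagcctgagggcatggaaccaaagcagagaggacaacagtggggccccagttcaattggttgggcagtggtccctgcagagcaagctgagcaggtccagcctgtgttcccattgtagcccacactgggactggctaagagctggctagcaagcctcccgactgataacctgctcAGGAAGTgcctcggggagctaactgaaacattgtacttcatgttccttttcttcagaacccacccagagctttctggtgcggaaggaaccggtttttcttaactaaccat
The Tns1 peak (chr1:74068577-74070424) was open in 0 of 56, 3 of 92 and 3 of 69 NP_LOH nuclei, and in 17.3%, 13.3% and 45.3% of NP nuclei. Tns1 encodes tensin, which links actin to focal adhesions. The Lmntd1 peak (chr6:145478793-145479517) was open in 1, 0 and 2 nuclei of NP_LOH, and in 21.2%, 12.2% and 32.1% of NP nuclei. In both peaks every NP sample lay above every NP_LOH sample. The log2 fold changes were −2.60 ± 0.51 and −3.40 ± 0.68 (SE), each with an edgeR adjusted p of 0.0244. Both peaks were common elsewhere, in 27.6% and 24.0% of LOH nuclei. DESeq2, its size factors, no filter, the fit without the block and thinning to 1000 open peaks per nucleus each left 0 calls.

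The 8 genes that were lower than in NP include genes of the thick limb and distal tubule. Tfap2b, a transcription factor of distal nephron development, had 15.9, 8.40 and 3.64 CPM against 105 in NP and 123 in LOH (log2 fold change −3.56 ± 0.60, edgeR adjusted p = 0.00338). Bsnd, the barttin subunit of renal chloride channels, had 0, 4.20 and 7.27 against 60.8 in NP and 138 in LOH. Cldn10, a claudin of sodium-permeable tight junctions, had 63.6, 42.0 and 7.27 against 158 and 234. NP and NP_LOH did not overlap in these 3 genes. Slc43a2, an amino acid transporter, had 58.3, 58.8 and 72.7 against 182 in NP and 306 in LOH. Mecom, a zinc finger factor, had 132, 151 and 164 against 322 in NP and 781 in LOH. Fnbp1, a membrane-curving protein, had 68.9, 71.4 and 43.6 against 150 in NP. Itga7, a laminin-binding integrin, had 1 open call in NP_LOH and 24.9 CPM in NP. Aebp1, a protein of the extracellular matrix, had 0 of 701821 open calls in NP_LOH against 23 of 928179 in NP, and set against a floor of 3 open calls over the cluster it was at least 5.80-fold lower. The 9 calls depended on the setting. All 9 were kept with no filter, and 5 each with the size factors of DESeq2 and without the block. DESeq2 kept 3 and left the other 6 untested. Of the 9, 1 was kept after thinning, 1 without the P21 sample, 2 without P56 sample 1 and 0 without P56 sample 2 or in windows at the start site.

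Set against LOH, most thin limb genes were higher in NP_LOH and most thick ascending limb genes lower. Of 10 thin limb genes tested, 8 were higher than in LOH and 1 lower, with a median log2 fold change of 1.70 against −0.11 for all genes. Of 13 thick ascending limb genes, 0 were higher and 10 lower, with a median of −1.96. The shares stand beside 8.39% higher and 7.94% lower over all genes. Against NP no thin limb gene and 1 thick limb gene (Cldn10) was called, with medians of 0.36 and −0.61 against −0.05 for all genes. The thin limb count was 8 with DESeq2, its size factors, no filter and no block, 7 after thinning and with LOH reduced, 6 without the P21 sample and 3 in start-site windows, where 6 of the genes were tested. In the deposited annotation thin and thick limb nuclei are not separated, so the LOH values are averages over its 2341 nuclei.

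The thin limb gene Aqp1, a water channel, had 138, 71.4 and 116 CPM in NP_LOH, against 48.2 in NP (24.4 to 60.5) and 11.9 in LOH (5.28 to 20.5). PT had 142, and Aqp1 is also the water channel of the proximal tubule. Bst1, an ectoenzyme that makes cyclic ADP-ribose, had 90.0, 96.6 and 113 against 60.6 in NP and 5.84 in LOH (4.23 to 8.96). Its log2 fold change against LOH was 4.20 ± 0.36 (edgeR adjusted p = 2.6e-12). Slc4a11, a borate transporter family member, had 95.3, 84.0 and 87.3 against 61.3 in NP and 23.1 in LOH. In these 3 genes every NP_LOH sample lay above every NP and LOH sample. Cldn4, a barrier claudin, had 37.1, 46.2 and 50.9 against 45.3 in NP and 4.15 in LOH. Cryab, a small heat shock protein of the kidney medulla, had 201, 101 and 131 against 96.3 in NP and 33.5 in LOH. Slc14a2, the urea transporter of the inner medulla, had 175, 323 and 138 against 203 and 106. Akr1b3, aldose reductase, had 169, 54.6 and 54.6 against 39.6 in LOH, and Fst, follistatin, had 37.1, 16.8 and 43.6 against 11.1. Sh3gl3 had 21.2, 29.4 and 21.8 and was not called.

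Thick limb genes were lower to different degrees. Slc12a1, the cotransporter that loop diuretics block, had 15.9, 8.40 and 0 CPM, against 41.9 in NP and 338 in LOH (292 to 380; log2 fold change −5.56 ± 0.41, edgeR adjusted p = 6.6e-14). Kcnj1, the potassium channel that returns potassium to the lumen, had 10.6, 8.40 and 10.9 against 13.8 and 180. Umod, uromodulin, had 31.8, 71.4 and 102 against 54.4 and 155. NP_LOH and LOH did not overlap in these 3 genes. Egf had 111, 143 and 69.1 against 405 in LOH, and Cldn10, Cldn16, Ptger3, Ppp1r1b, Enox1 and Egfl6 were also lower. The other 3 genes lay at similar levels in the 3 clusters. Cldn19, the partner claudin of Cldn16, had 101, 88.2 and 90.9 in NP_LOH and 97.5 in LOH. Irx1 had 42.4, 42.0 and 65.5 against 59.6, and Irx2, which patterns the middle part of the nephron, had 106, 58.8 and 113 against 95.9. Irx2 was at 12.3 in PC and 7.20 in PT. The 5 genes with the largest fold in each direction against LOH were on no list. Gm40909, Gm11460, Gm34294, Igkv1-108 and Gm22611 were the higher ones, with 9 to 21 open calls each in NP_LOH and a level in LOH of 0 to 0.0761 CPM. Gm25000, Lrrc52, 1110019B22Rik, Gm49662 and Gm14002 were the lower ones, with 0 open calls in NP_LOH and 48.9 to 88.9 CPM in LOH.

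Peaks at the start sites of 4 of these genes are given as examples. The Slc12a1 start site was open in 0 of 217 NP_LOH nuclei, in 3.53% of NP nuclei and in 31.5% of LOH nuclei. The Cryab start site was open in 67.9%, 26.1% and 52.2% of NP_LOH nuclei against 46.5% in NP and 12.8% in LOH. The Aqp1 start site was open in 25.4% of NP_LOH nuclei, 15.6% of NP and 2.21% of LOH nuclei. The shares are means of the 3 adult samples where 1 value is given. The Irx2 start site was open in 29.4% of NP_LOH nuclei, 31.5% of NP and 30.5% of LOH nuclei.

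Summed over the lists, thin limb genes had 985, 853 and 786 CPM in NP_LOH (874 ± 102, SD, n = 3), against 740 in NP and 376 in LOH, the highest of 14 clusters. Thick limb genes had 598, 601 and 586 (595 ± 8.20), against 848 in NP and 2092 in LOH. NP_LOH did not overlap LOH for either list. In the thin limb list it lay above NP within each sample, with 956, 692 and 572 in NP in the same order, although the ranges overlapped, and it lay below every NP sample in the thick limb list. In windows at the start sites alone the order in the thick limb list turned, with 296 ± 68.8 in NP_LOH, 274 in NP and 631 in LOH. In nuclei thinned to 1000 open peaks, 61.6% of NP_LOH nuclei had an open call in the windows of thin limb genes, gene body and 2 kb upstream, against 57.8% in NP and 30.4% in LOH, and 38.7% against 58.1% and 88.9% in those of thick limb genes.

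**Figure D5:**
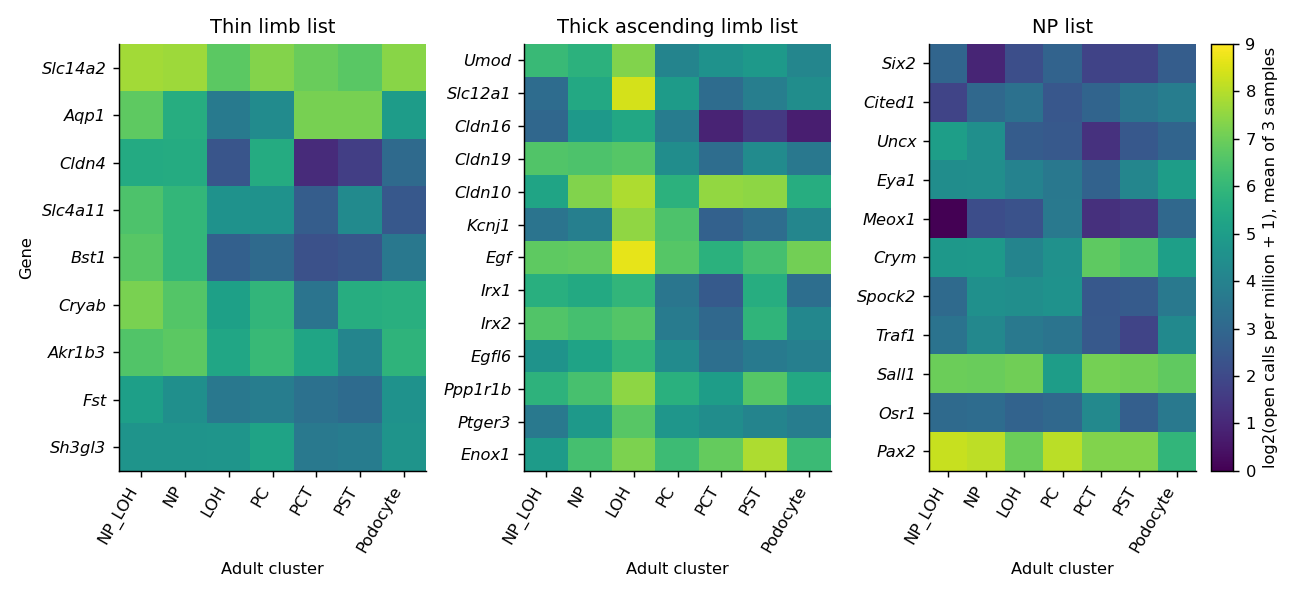
Gene activity in log2(CPM + 1), as the mean of 3 adult samples, for genes of the thin limb (9 of 10), thick ascending limb and NP lists (rows) in NP_LOH and 6 adult cell types (columns). In NP_LOH Bst1, Aqp1 and Cryab are high and Slc12a1 and Kcnj1 are low, against the reverse in LOH.

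Six2, Cited1 and Meox1, which define progenitors, were low against the P0 kidney. The 11 genes of the NP list summed to 646, 462 and 520 CPM in NP_LOH (543 ± 94.1), against 527 in adult NP, 347 in LOH and 715 and 711 in NP at P0, with 305 of the NP_LOH sum from Pax2 alone. Every NP_LOH sample lay below both P0 samples. Among the 14 adult clusters the NP_LOH sum was the highest, with 447 in PT, 428 in PT2 and 401 in PC. After thinning it ranked second, with 515 against 618 in NP. Six2, the factor that keeps progenitors from differentiating, had 0, 12.6 and 7.27 CPM against 0.904 in adult NP, 3.46 in LOH and 56.7 in NP at P0. Cited1 had 0, 4.20 and 3.64 against 29.8 in P0 NP, Meox1 was at 0 in all 3 samples against 25.6, and Eya1 had 15.9, 37.8 and 7.27 against 90.5. The Six2 start site was open in 5 of 217 NP_LOH nuclei and in 35.3% and 43.1% of NP nuclei at P0. Neither adult NP nor NP_LOH came near the P0 level of Six2. Pax2 and Uncx stood out against adult LOH, and their levels in NP at P0 are not given here. Pax2, which is also used in the collecting duct, had 376, 239 and 298 against 276 in NP and 126 in LOH (log2 fold change against LOH 1.23 ± 0.21), and Uncx had 53.0, 29.4 and 14.5 against 21.2 and 5.21. They were the 2 of 10 tested genes of the NP list that were higher than in LOH, where 8.39% of all genes were higher, and 0 were lower.

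Markers of podocytes and the proximal tubule were mostly far below their own types. Of the podocyte list, 11 of 11 tested genes were lower than in Podo, where 7.16% of all genes were lower. Wt1, a transcription factor of podocytes and progenitors, had 0, 4.20 and 3.64 against 159. All 8 tested genes of the PCT list were lower than in PT, where 20% of all genes were lower, and all 7 tested genes of the PST list were lower than in PT2, where 18.7% were. Hnf4a, a regulator of the proximal tubule, had 26.5, 21.005 and 14.5 against 415 in PT. Against LOH the lists held calls in both directions. The higher calls were 2 of 11 podocyte genes (Synpo and Ptpro), 1 of 8 PCT genes (Cubn), 1 of 7 PST genes (Atp11a) and 2 of 9 genes of both segments (Keg1 and Fut9), against 8.39% of all genes. Of these, Synpo, Ptpro, Cubn and Keg1 turned to the other direction in start-site windows. Of the 8 PCT genes 3 (Slc4a4, Slc7a7 and Slc34a3) were lower than in LOH, against 7.94% of all genes, and the PCT list summed to 289 CPM in NP_LOH and 466 in LOH. Of the 11 podocyte genes 1 was lower than in LOH, and the podocyte list summed to 394 CPM in NP_LOH and 310 in LOH. The parietal epithelium list, for the cells that line Bowman's capsule, summed to 570 ± 90.8 CPM in NP_LOH against 503 in NP and 243 in LOH, the highest of 14 clusters. Akap12, a scaffold of kinases, had 127, 122 and 149 against 94.6 and 31.3, and Pax8, a kidney lineage factor, had 355, 290 and 240 against 239 and 125. Those and Cp, ceruloplasmin, were the 3 of 6 tested genes higher than in LOH, where 8.39% of all genes were higher, and 0 were lower. The NP samples (618, 451 and 439) overlapped the NP_LOH samples (614, 630 and 466), and in start-site windows NP_LOH ranked second, with 96.2 against 100.4 in NP.

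The PC list summed to 261 CPM in NP_LOH, 192 in NP, 122 in LOH and 736 in PC, and Apela alone gave 180, 101, 45.9 and 63.8 of these sums. In start-site windows the order against NP turned, with 67.8 in NP_LOH and 72.7 in NP. Fxyd4, a regulator of the sodium pump in the collecting duct, had 21.2, 16.8 and 21.8 CPM against 0.711 in LOH and 47.6 in PC. Apela, a ligand of the apelin receptor, had 238, 139 and 164 CPM in the NP_LOH samples. Both were higher than in LOH, where 8.39% of all genes were higher, and the other 6 of 8 genes were not called. Aqp2, the water channel that defines principal cells, was at 15.9, 16.8 and 0 against 103 in PC, and Gata3 was at 21.2, 16.8 and 14.5 against 208. Of the distal convoluted tubule list 4 of 8 genes were lower than in LOH, where 7.94% of all genes were lower. Of the connecting tubule (6 tested), intercalated cell (8), macula densa (5) and immune (6) lists 1 gene each was lower. The endothelium, stroma, proliferation and injured proximal tubule lists had 0 calls in either direction. The immune list summed to 46.0 against 650 in immune cells, the endothelial list to 265 against 2429, and the stromal list to 81.2 against 783. Of the 3 urothelial genes tested 1, Trp63, was higher than in LOH, against the same 8.39% of all genes.

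Among the genes most open in NP_LOH, the next cell type was most often NP. A gene qualified when it had at least 20 open calls in NP_LOH and a higher level there than in each of the 13 types in every adult sample, which 339 genes did, and NP was next in 178 (52.5%). These values describe how the genes were chosen and carry no test. No share over all genes stands beside the 52.5%, so it does not measure how alike the clusters are. The leading gene was the predicted transcript Gm48004, with 42.4, 33.6 and 40.0 CPM and 7.92 in the next type, the connecting tubule. Npy2r, a neuropeptide Y receptor, had 37.1, 29.4 and 32.7 against 11.9 in NP, and Tbpl2 had 68.9, 79.8 and 40.0 against 24.2. Among coding genes, named after their values were seen, Slc1a2, a glutamate transporter, had 154, 139 and 182 against 76.2 in NP. Henmt1 had 90.0, 67.2 and 72.7 against 36.3, and Proser2 had 169, 134 and 164 against 87.5. Proser2 is also the gene nearest to a peak shown above. Peaks were chosen by the same rule, but with at least 10 open NP_LOH nuclei. Of 1667 such peaks, NP was next in 1037 (62.2%) and PC in 170 (10.2%), again without a share over all peaks. The first 10 were open in only 10 to 19 of the 217 nuclei, so each rests on few nuclei. One of them, an exon peak of Slc1a2 at chr2:102675514-102675779, was open in 11 NP_LOH nuclei and in 0 of 195 NP nuclei.

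The shares of open calls in peaks with a motif word differed little between NP_LOH and NP. The central 300 bases of peaks away from start sites were searched on both strands. Of the open calls of NP_LOH, 11.4% held AP-1 (TGANTCA), as in NP (11.4%), against 9.75% in LOH and 10.6% in PT. The HNF4 word (CAAAGTC), a mark of proximal enhancers, was held by 5.29% ± 0.0502 (SD, n = 3), the lowest of 14 clusters, against 5.62% in NP, 5.56% in LOH and 9.10% in PT. The ERR word (AAGGTCA) was held by 7.48% against 7.72% in NP and 10.6% in LOH, and the TFAP2 word (GCCNNNGGC) by 11.3% against 11.5% and 11.96%. Among the 66 peaks of the NP set, 13 (19.7%) held AP-1 against 10.5% of all 139113 peaks away from start sites that were open in at least 50 nuclei, 9 (13.6%) TFAP2 against 8.96%, 10 (15.2%) a word of Six2 and its relatives (TGANACC) against 13.5% and 3 (4.55%) HNF4 against 6.54%. The POU word (ATGCAAA) was in 6 (9.09%) against 5.33%, and the motifs named for HNF1 and CTCF were in 0. The ETS word (AGGAAGT), which the Lmntd1 sequence holds in capitals, was also searched. So was the word AGATAAG of the Gata3 family. A matched word is not a bound site. Peaks at start sites took 46.5% ± 3.92 of NP_LOH open calls, against 43.7% in NP, 47.9% in LOH and 40.1% in PT.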

How the data were processed

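NP_LOH nuclei were those with that cluster name in the deposited annotation. The comparisons, marker lists and alternatives were chosen with earlier results of these data known. Reads had been mapped to mm10 by the authors (Cell Ranger ATAC 1.1.0), who then filtered barcodes, clustered nuclei with SnapATAC and Harmony, and called peaks with MACS2 on each cell type before merging them. The counts used here come from the matrix deposited by the authors, which is binarized (1 where a nucleus has a fragment in a peak) and not scaled for depth. It holds 28316 nuclei, 300755 peaks and 166031996 open calls, and 89197 stored zeros were read as closed. The UMAP coordinates are a score deposited by the authors, and cluster names and sample names came from the same deposited annotation. The score column of the deposited peak list holds positions. The scRNA-seq cell tables and bulk ATAC-seq were not used here. No column of an unknown sample was met.

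Open calls were summed per sample and cluster where at least 20 nuclei were present, giving 42 adult sums of 13 cell types and NP_LOH. Depth was 16980853 to 43794155 open calls per sample. NP_LOH had 188814 to 274965 open calls per adult sample, so single peaks rest on few nuclei. Tests ran in R 4.3.3 by the quasi-likelihood method of edgeR 4.0.16 (with limma 3.58.1, TMM, filterByExpr and Benjamini-Hochberg adjustment at 0.05), with the sample as a block, because clusters of a sample come from the same kidney preparation. DESeq2 1.42.0 was an alternative. The standard error of a log2 fold change is its size over the square root of the F statistic. Scripts were tested on simulated data. Other steps used Python 3.11.15, NumPy 2.4.6, pandas 2.3.3, SciPy 1.17.1, matplotlib 3.10.9 and pyranges 0.1.4. The activity of a gene is the sum of open calls from 2 kb upstream to its end (GENCODE M21), which favours long genes, so levels were compared between clusters and not between genes. Peak sets, closest types and mixtures used adult samples, with a pseudocount of 1 on log2 scales. Genes named are members of the marker lists, the 12 leading genes and 10 leading peaks (highest ratio to the next type) and the 5 largest called folds in each direction against LOH and NP. All 9 genes called against NP and the coding leading genes were added after seeing values. Doublets were not searched for. The settings tried instead were no block, no filter, DESeq2 or only its size factors, thinning to 1000 open peaks, start-site windows (2 kb upstream to 500 bp downstream), other set sizes, features and scales, and each sample left out in turn. Some of the genes and regions these rules chose are not reported here.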

Additional observations from a re-analysis of the deposited data

How the results depend on the processing

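Across 292 alternative values of 47 results, 188 stayed within the set limits and 104 moved. The limits were a factor of 1.5 for counts and the SD over samples for most other values. A mean that only drops a sample cannot move by that SD, and rank correlations do not change with the pseudocount. The share difference counted as kept while it stayed positive. The 188 therefore include values that could not move. Peaks called against NP were 0 with DESeq2, its size factors, no filter, no replicate block and thinning. Without the block 6 genes differed from NP, and no other count moved by over 1.5 times. Genes against NP were 23 with DESeq2, 5 with size factors, 3 thinned and 0 in start-site windows. The number tested differed between settings, so these counts are not shares. With no filter, peaks were 24360 against LOH, 59065 against PT and 40898 against PT2, of 300649 tested against 59634 in the main fit. Thinned, peaks fell to 838 (LOH), 741 (Podo), 1370 (PT) and 929 (PT2) of 10802 tested. Thinned genes fell to 1254, 1139, 2719 and 2212 of 14411 tested. Start-site windows left 1476, 1111, 3567 and 3223 genes of 17993 tested, and thin limb genes higher than in LOH fell to 3. LOH reduced to the nuclei of NP, added after seeing the data, left 4969 peaks of 37579 tested and 2238 genes of 20869.

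Peak sets with 500 peaks stood at 11.7% (LOH), 15.5% (PC), 4.41% (PT), 5.73% (PT2) and 2.61% (P0 NP), the PC set with 100 peaks at 9.86%, and thinned sets at 10.6% (LOH), 35.4% (PC), 26.6% (Podo), 5.09% (PT) and 7.33% (PT2). Spearman correlations away from start sites and thinned were 0.487 and 0.453 (NP), 0.400 and 0.427 (LOH), 0.419 and 0.435 (PC), 0.266 and 0.348 (Podo), 0.227 and 0.336 (PT), 0.286 and 0.364 (PT2). The NP weight of the mixture was 66.5% away from start sites, 19.6% thinned and 46.0% on square roots, the LOH weight 4.97%, 23.0% and 13.6%, and the thinned PC weight 19.9%, so the order of NP, PC and LOH in the mixture was lost on thinning, when LOH was highest. The cause was not tested. List sums in start-site windows were 274 (thin limb), 296 (thick limb), 279 (NP), 96.2 (parietal), 67.8 (PC), 56.2 (podocyte), 20.04 (PCT) and 71.7 (PT), and thinned 570 (thick limb), 319 (PC) and 327 (PCT). Of peaks of all kinds, whole peaks held HNF4, AP-1 and TFAP2 words in 12.7%, 19.8% and 42.3% of open calls. Against LOH, 5 named genes reversed in start-site windows, with log2 fold changes of −4.64 (Cubn), 0.015 (Wnk1), −3.48 (Ptpro), −0.18 (Synpo) and −0.29 (Keg1). Of 83 named genes called against LOH, 80 were kept with DESeq2 and 45 in start-site windows, where 20 were not tested.

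Each sample left out in turn gave these ranges, with 40108 to 82693 peaks and 20941 to 24538 genes tested. Peaks called were 0 to 1 (NP), 5839 to 13611 (LOH), 4264 to 6099 (Podo), 13534 to 26128 (PT) and 11191 to 21146 (PT2), and genes 0 to 3, 2117 to 3058, 1865 to 2524, 5081 to 6538 and 4146 to 5942. The adult share exceeded the P0 share by 1.18 to 1.47 percentage points. Ratios of open peaks were 0.590 to 0.719 (NP), 0.891 to 1.00 (LOH), 0.784 to 0.918 (Podo), 0.529 to 0.594 (PT) and 0.364 to 0.495 (PT2). Peak sets stood at 128% to 143% (NP), 9.30% to 11.1% (LOH), 14.6% to 28.5% (PC), 2.72% to 4.07% (Podo), 3.47% to 4.04% (PT), 4.92% to 5.32% (PT2) and 1.84% to 2.24% (P0 NP). Correlations were 0.582 to 0.616 (NP), 0.514 to 0.539 (LOH), 0.530 to 0.557 (PC), 0.413 to 0.431 (Podo), 0.373 to 0.385 (PT) and 0.421 to 0.429 (PT2). Mixture weights were 52.7% to 58.7% (NP), 22.1% to 25.7% (PC) and 9.01% to 11.6% (LOH), and 24.0% to 88.2% of nuclei were closest to NP. List sums were 819 to 919 (thin limb), 592.0 to 599.6 (thick limb), 491 to 583 (NP), 539.9 to 622 (parietal), 241 to 275 (PC), 347 to 445 (podocyte), 275 to 303 (PCT) and 352 to 421 (PT). In peaks of all kinds, where the words were held in 4.22% (HNF4), 7.99% (AP-1) and 20.3% (TFAP2) of open calls with all samples, they were held in 4.17% to 4.26% (HNF4), 7.78% to 8.15% (AP-1) and 19.9% to 20.9% (TFAP2) of open calls, and start sites in 45.1% to 48.7%. Thin limb genes higher than in LOH were 6 to 7, and thick limb genes lower 9 to 10. The 217 adult nuclei limit what single peaks can show.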
